A study of Homo sapiens with 12 samples.

Results

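FGF13, CYP3A5 and CST7 are 3 genes whose transcripts stood high in LM2 cells carrying a scramble short hairpin RNA (shRNA) and low in the other cells of the series. They were picked by symbol from the 24556 gene symbols of the deposited table, because their scramble shRNA values lay far above those with an EZH2 shRNA and with a scramble small interfering RNA (siRNA). Each symbol occurred in 1 row. A difference of these genes from the scramble shRNA group is therefore a description here and not a finding. The tests were kept for the differences among the 3 low groups (EZH2 shRNA, ZRANB1 siRNA and scramble siRNA). Those differences were not what the genes were picked on, although the EZH2 shRNA and scramble siRNA values were both known to be low. The question was whether the 3 low groups stood at the same level, or whether the level went with the loss of EZH2.

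LM2 cells descend from MDA-MB-231, an established human line of triple-negative breast cancer, and were selected for colonizing lung. RNA was sequenced from 12 libraries, 3 in each of 4 groups: LM2 cells transduced with a scramble shRNA, transduced with an shRNA against EZH2, transfected with a scramble siRNA, and transfected with a ZRANB1 siRNA. The product of EZH2 is the histone H3 lysine methyltransferase of Polycomb repressive complex 2, and that of ZRANB1 is a deubiquitinase. Each arm thus had its own control, made with the same way of delivery. The labels did not say whether the transduced cells were pools or single clones, or whether libraries of 1 group stem from different cultures. The p-values therefore rest on the spread among these samples alone, and that spread may be technical.

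The 3 genes have unrelated products. FGF13 encodes a fibroblast growth factor homologous factor, which in spite of its name is not a classical secreted growth factor: it stays inside the cell, binds the tail of voltage-gated sodium channels and is best known from neurons and heart muscle. CYP3A5 encodes a cytochrome P450 of the endoplasmic reticulum, best known from liver and intestine, which oxidizes many drugs and steroids with electrons from the reductase POR. CST7 encodes cystatin F, an inhibitor of cysteine cathepsins in lysosomes that is best known from cytotoxic lymphocytes and myeloid cells. FGF13 lies on chromosome X, CYP3A5 on chromosome 7 and CST7 on chromosome 20.

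The start regions are shown so that the sequence before the transcripts can be set beside their shared pattern of levels. Of the 3 genes, FGF13 and CYP3A5 matched the RefSeq promoter table (build GRCh38.p14), FGF13 with 2 alternative starts. The 250 bases before each start are given 5′ to 3′ on the strand of the gene, with matches to the searched motifs in capitals.
FGF13 first start, chrX:139205024-139205273, minus strand: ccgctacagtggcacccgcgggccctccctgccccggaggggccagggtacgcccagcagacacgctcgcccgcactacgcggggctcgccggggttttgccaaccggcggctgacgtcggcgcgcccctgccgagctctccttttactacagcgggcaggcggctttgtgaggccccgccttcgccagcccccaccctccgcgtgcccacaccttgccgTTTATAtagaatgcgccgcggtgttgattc
FGF13 second start, chrX:138739354-138739603, minus strand: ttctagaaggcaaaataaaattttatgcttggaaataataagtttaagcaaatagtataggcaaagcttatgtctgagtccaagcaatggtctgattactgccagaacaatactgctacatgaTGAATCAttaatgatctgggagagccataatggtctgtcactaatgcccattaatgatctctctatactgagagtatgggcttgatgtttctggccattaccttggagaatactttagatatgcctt
CYP3A5, chr7:99679997-99680246, minus strand: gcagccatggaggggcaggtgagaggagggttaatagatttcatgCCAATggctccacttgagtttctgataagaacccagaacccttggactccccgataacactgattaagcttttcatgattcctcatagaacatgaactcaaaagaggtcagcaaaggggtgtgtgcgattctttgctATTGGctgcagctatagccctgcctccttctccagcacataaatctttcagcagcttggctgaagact

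These windows differed widely in base composition. The first FGF13 window held 29 CpG dinucleotides, more than 85.9% of the 35116 windows of the table, and 70.4% G and C. The second FGF13 window held 0 CpG dinucleotides and 36.4% G and C, and the CYP3A5 window held 2 and 47.6%, against medians of 11 and 58% over all windows. A TATA box, a CCAAT box, an AP-1 motif, an E-box and an NF-kappa-B motif were searched on both strands, and no match overlapped another. The TATA box, searched as TATAAA, was found in the first FGF13 window on the opposite strand, at position -30 from the start, and is present in 10.7% of all windows. The AP-1 motif, searched as TGANTCA, was found in the second FGF13 window and is present in 6.57% of all windows. The CCAAT box was found in the CYP3A5 window once on each strand, at positions -205 and -68 from the start, and is present in 32.0%. The E-box, searched as CACGTG, and the NF-kappa-B motif, present in 6.34% and 0.527% of all windows, matched none of the 3 windows. No searched motif was shared between an FGF13 window and the CYP3A5 window. The table of levels did not separate the FGF13 starts.

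Expression was given as FPKM, a fragment count divided by transcript length and library total, so levels can be compared between genes. In each row the values of a group were sorted as text, so a value could be placed in its group but not in its library, and depth per library could not be read. Fewer cells with a transcript and less of it per cell cannot be told apart in such bulk RNA. Tests used log2(FPKM + 1), a scale on which changes of low genes are understated, for the 11929 genes whose mean over the 12 values reached 1 FPKM. The targeted gene EZH2 stood at 35.4 ± 1.07 FPKM (SD, n = 3) with the scramble shRNA and 16.5 ± 0.681 with the EZH2 shRNA. For ZRANB1 the scramble siRNA level was 11.4 ± 0.795 FPKM, beside 10.0 ± 1.31 in the libraries labelled ZRANB1 siRNA, an uncalled difference (limma adjusted p = 0.349), so those libraries are named by their label only. The vimentin gene VIM, typical of the mesenchymal MDA-MB-231 line, had group means of 2573 to 2836 FPKM, whereas the estrogen receptor gene ESR1 did not exceed 0.0308 FPKM and the progesterone receptor gene PGR was listed at 0.

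FGF13 stood below 1 FPKM in all 9 libraries outside the scramble shRNA group. With the scramble shRNA its 3 values were 5.75, 5.99 and 6.77 FPKM. With the EZH2 shRNA they were 0.735, 0.780 and 0.886 FPKM. With the scramble siRNA they were 0.524, 0.628 and 0.822 FPKM, and in the libraries labelled ZRANB1 siRNA 0.457, 0.796 and 0.846 FPKM. Only the scramble shRNA values stood apart, the lowest of them 6.49 times the highest of the 9 others, while the other groups overlapped each other. The group means were 6.17 ± 0.533 FPKM (SD, n = 3) with the scramble shRNA, 0.801 ± 0.0776 with the EZH2 shRNA, 0.658 ± 0.151 with the scramble siRNA and 0.700 ± 0.212 with the ZRANB1 siRNA. The scramble shRNA mean was thus 7.70, 9.37 and 8.82 times those with the EZH2 shRNA, with the scramble siRNA and with the ZRANB1 siRNA.

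FGF13 had a mean of 0.719 FPKM over the 9 values outside the scramble shRNA group, so it passed the minimum of 1 FPKM only through that group. The tests among the low groups thus concern levels below the minimum, and none of the 3 differences was called. The EZH2 shRNA group exceeded the scramble siRNA group by 0.12 on the log2(FPKM + 1) scale (standard error 0.12, 95% interval -0.14 to 0.38, limma adjusted p = 0.416). The ZRANB1 siRNA group differed from the scramble siRNA group by 0.032 (interval -0.23 to 0.29, limma adjusted p = 0.901) and from the EZH2 shRNA group by -0.090 (interval -0.35 to 0.17, limma adjusted p = 0.613). These intervals reach at most 0.38 from 0, on a scale that understates changes at such levels. Differences from the scramble shRNA group were -1.99, -2.11 and -2.08, and they follow in part from how the gene was picked. A p above the threshold does not show equal levels, and the intervals give the sizes that remain possible. With values this low the tests cannot support a shared level. The antisense transcript FGF13-AS1, whose reads could not be told from FGF13 reads without a strand setting, was listed at 0 in all 12 libraries.

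CYP3A5 had the lowest level of the 3 genes outside the scramble shRNA group. Its values were 3.27, 3.41 and 3.98 FPKM with the scramble shRNA and 0.0871, 0.304 and 0.556 FPKM with the EZH2 shRNA. They were 0.0892, 0.260 and 0.314 FPKM with the scramble siRNA and 0.119, 0.168 and 0.238 FPKM in the libraries labelled ZRANB1 siRNA. Again the scramble shRNA values alone stood apart, the lowest being 5.88 times the highest of the 9 others, and the low groups overlapped fully or in part. The means were 3.56 ± 0.375, 0.316 ± 0.235, 0.221 ± 0.117 and 0.175 ± 0.0597 FPKM (SD, n = 3) in the same order, so the scramble shRNA mean was 11.3, 16.1 and 20.3 times the others. With a mean of 1.07 FPKM over the 12 libraries, CYP3A5 passed the minimum of 1 FPKM only through its scramble shRNA values.

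The relative spread of CYP3A5 in the low groups was wide, with an SD of 74.4% of the mean with the EZH2 shRNA, 53.1% with the scramble siRNA and 34.0% with the ZRANB1 siRNA, against 10.6% with the scramble shRNA. No difference among the low groups was called, but with a mean of 0.237 FPKM over these 9 values the tests cannot support a shared level. The difference was 0.097 for EZH2 shRNA against scramble siRNA (interval -0.22 to 0.42, limma adjusted p = 0.604), -0.052 for ZRANB1 siRNA against scramble siRNA (interval -0.37 to 0.27, limma adjusted p = 0.865) and -0.15 for ZRANB1 siRNA against EZH2 shRNA (interval -0.47 to 0.17, limma adjusted p = 0.483). Differences from the scramble shRNA group were -1.80, -1.90 and -1.95. CYP3A genes are close copies that can share reads. CYP3A4 did not exceed 0.0226 FPKM and CYP3A43 was listed at 0. No row was found under the symbol CYP3A7, so reads shared with it could not be checked.

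For CST7, differences among the low groups were called. Its values were 6.50, 8.07 and 8.12 FPKM with the scramble shRNA, 1.81, 2.26 and 2.32 with the EZH2 shRNA, 0.553, 0.698 and 0.760 with the scramble siRNA, and 1.32, 1.84 and 2.25 in the libraries labelled ZRANB1 siRNA. The scramble siRNA values lay below all others, the EZH2 shRNA and ZRANB1 siRNA values overlapped, and the scramble shRNA values lay above all others, with the lowest at 2.80 times the highest of the 9 others. The means were 7.56 ± 0.922, 2.13 ± 0.279, 0.670 ± 0.106 and 1.80 ± 0.468 FPKM (SD, n = 3). The scramble shRNA mean was 3.55 times that of the EZH2 shRNA group, 11.3 times that of the scramble siRNA group and 4.19 times that of the ZRANB1 siRNA group.

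**Figure D1:**
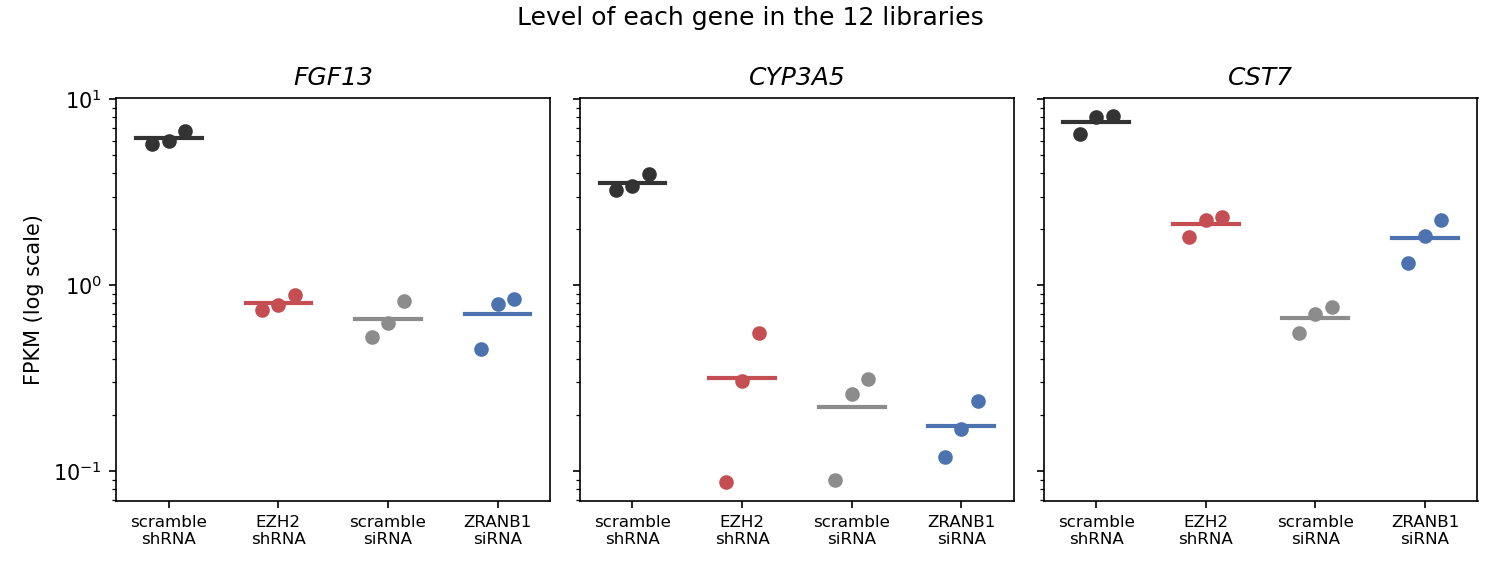
FPKM of FGF13, CYP3A5 and CST7 on a log axis, with 1 point per library, 3 in each of 4 groups, and a bar at each group mean. The scramble shRNA points lie above all others in each panel; CST7 alone has its scramble siRNA points, 0.553 to 0.760 FPKM, below those of the other low groups.

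CST7 was higher with the EZH2 shRNA than with the scramble siRNA, 3.18 times by the means, with a log2 difference of 0.90 (standard error 0.13, interval 0.61 to 1.20, limma adjusted p = 1.81e-04). At the same threshold 24.7% of all tested genes were higher in that comparison and 26.9% were lower. The EZH2 shRNA group and each siRNA group differed in the target and in the way of delivery at once. These cannot be told apart in such a comparison. CST7 was also higher in the libraries labelled ZRANB1 siRNA than with their scramble siRNA control, 2.69 times, with a log2 difference of 0.74 (standard error 0.13, interval 0.44 to 1.03, limma adjusted p = 0.00333). There the background was 10.1% of tested genes higher. All 9 pairs of values had the same direction in each of these comparisons. The ZRANB1 siRNA group did not differ from the EZH2 shRNA group beyond the spread (log2 difference -0.17, interval -0.46 to 0.13, limma adjusted p = 0.385), where 15% of tested genes were higher and 13.3% lower. In a two-sided exact permutation test, 3 values against 3 cannot give a p below 0.1, and CST7 gave 0.1 for the first 2 of these comparisons and 0.4 for the last.

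**Figure D2:**
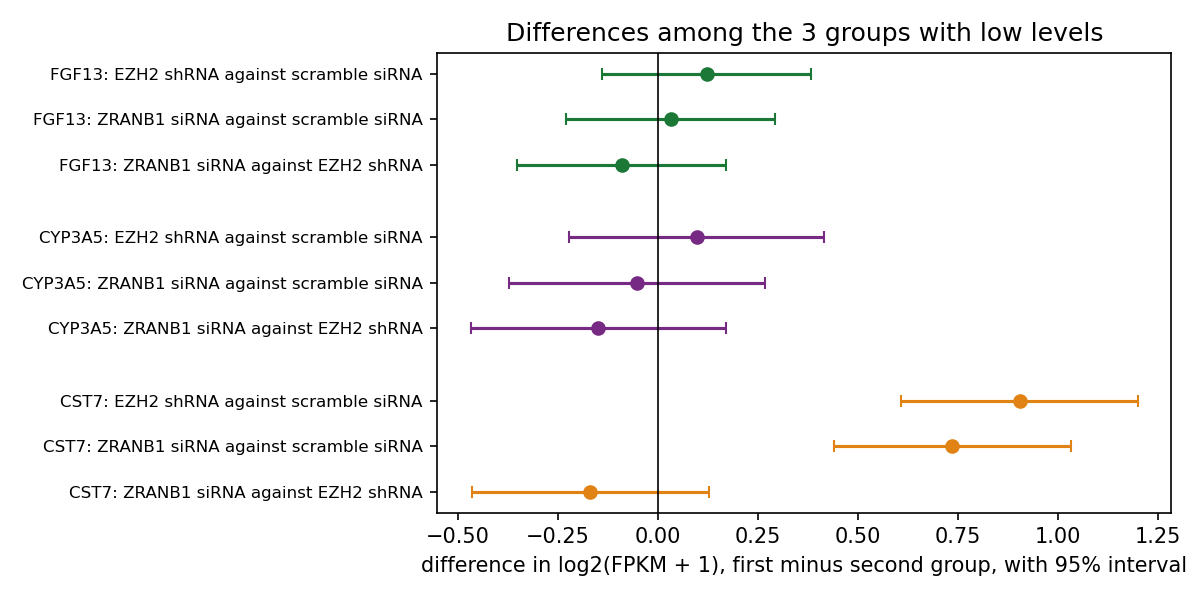
Differences in log2(FPKM + 1) among the 3 low groups, with 95% intervals from limma, 3 libraries a group. The 6 intervals of FGF13 and CYP3A5 include 0, as does CST7 for ZRANB1 siRNA against EZH2 shRNA; CST7 lies above the scramble siRNA by 0.90 and 0.74.

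By level, FGF13 ran from scramble shRNA through EZH2 shRNA and ZRANB1 siRNA to scramble siRNA, with the last 3 not told apart by their spread. CYP3A5 ran from scramble shRNA through EZH2 shRNA and scramble siRNA to ZRANB1 siRNA, again with the last 3 not told apart. CST7 had the same order as FGF13, with the EZH2 shRNA and ZRANB1 siRNA groups not told apart and the scramble siRNA group below both. In the scramble shRNA group the levels of 6.17, 3.56 and 7.56 FPKM exceeded those of 30.0%, 19.1% and 35.2% of tested genes, so all 3 were modest transcripts even where they were highest.

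The levels of EZH2 and of the 3 genes were set side by side in the 4 groups. EZH2 was highest with the scramble siRNA, at 48.6 ± 2.1 FPKM (SD, n = 3), which was 137% of its scramble shRNA level, and there FGF13, CYP3A5 and CST7 stood at 10.7%, 6.22% and 8.87% of theirs. With the EZH2 shRNA, EZH2 stood at 46.6% and the 3 genes at 13%, 8.88% and 28.2%. In the libraries labelled ZRANB1 siRNA, EZH2 stood at 85.8% and the genes at 11.3%, 4.93% and 23.9%. Against its own control EZH2 was lower in those libraries, 30.4 ± 2.08 FPKM against 48.6 (log2 difference -0.66, limma adjusted p = 5.43e-05). Over the 3 low groups the order of the CST7 means, from scramble siRNA through ZRANB1 siRNA to EZH2 shRNA, was the reverse of that of EZH2. The step of CST7 from ZRANB1 siRNA to EZH2 shRNA was uncalled (limma adjusted p = 0.385). FGF13 means had the same order, with no step called, and CYP3A5 means did not. With the scramble shRNA, where all 3 genes were highest, EZH2 at 35.4 FPKM lay between its scramble siRNA and ZRANB1 siRNA means. The EZH2 shRNA and scramble siRNA values had been used to pick the genes, and the part of EZH2 or of the kind of delivery in their levels was not tested.

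**Figure D3:**
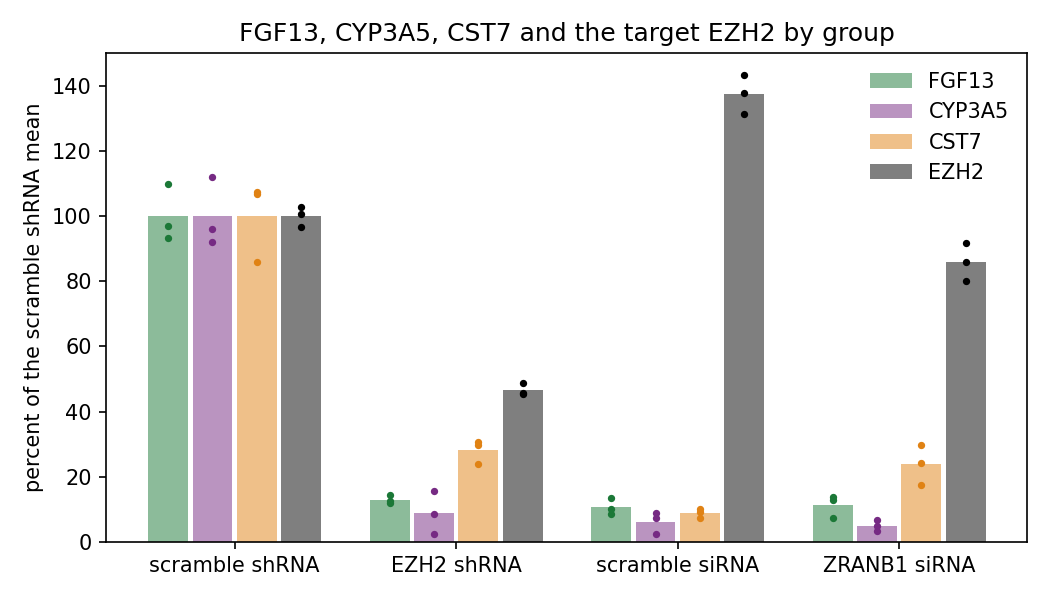
Levels of FGF13, CYP3A5, CST7 and EZH2 in each group as a percent of the gene's scramble shRNA mean, with bars for means and points for the 3 libraries. EZH2 is at 137% with the scramble siRNA, where the 3 other genes are at 6.22% to 10.7%.

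The pattern was not common. Of the 11929 tested genes, 603 (5.05%) had their 3 scramble shRNA values above the 9 others, and in 58 (0.486%) the scramble shRNA mean was at least 2 times each other group mean. Of these 58, 30 were small RNA or LOC symbols. Among the remaining 28, CYP3A5 had rank 1 with a ratio of 11.3 to the highest other mean, FGF13 rank 2 with 7.70 and CST7 rank 4 with 3.55. These ranks follow from how the genes were picked and are given as a description. The gene between FGF13 and CST7 was that of the metastasis-associated calcium-binding protein S100A4, with 3.86, and the next after CST7 was the acute-phase gene SAA1, with 3.25. In 21 of the 28 the ZRANB1 siRNA mean lay above the scramble siRNA mean and below the EZH2 shRNA mean. FGF13 and CST7 were among these and CYP3A5 was not, though the low group means of FGF13 were not told apart. The share of all tested genes with this order was not counted, so the 21 are not a result about these genes.

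The genes of likest profile were found by the Euclidean distance between the 4 group means of log2(FPKM + 1), each profile centred on its own mean. FGF13 and CYP3A5 were each other's nearest, at 0.16, and CST7 was the next for both, at 0.65 and 0.65. All of them were picked for standing high with the scramble shRNA alone. Their nearness to each other thus follows in part from that choice and is given as a description. After these came PHC2, MMP2 and SMAD6 for FGF13, at 0.79, 0.80 and 0.81, and SMAD6, PHC2 and IFI27 for CYP3A5, at 0.67, 0.68 and 0.70. The profile of PHC2, a Polycomb repressive complex 1 gene, rested on 1 of its 3 scramble shRNA values, 912 FPKM beside 104 and 111; without it the difference with the EZH2 shRNA turned to 0.12 on the log2 scale. SMAD6, an inhibitor of bone morphogenetic protein signalling, went from 8.84 ± 0.877 FPKM with the scramble shRNA to 4.32 ± 0.553, 2.82 ± 0.299 and 3.06 ± 0.769 in the EZH2 shRNA group and the scramble and ZRANB1 siRNA groups. The interferon-induced gene IFI27 went from 2.70 ± 0.659 to 1.02 ± 0.269, 0.641 ± 0.477 and 0.622 ± 0.770 FPKM.

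CST7 had closer neighbours than FGF13 and CYP3A5, which ranked 27 and 28 in distance from it. Nearest was the gelatinase gene MMP2, at 0.23, with 11.5 ± 1.22, 3.62 ± 0.0829, 1.04 ± 0.233 and 2.73 ± 0.239 FPKM from scramble shRNA through EZH2 shRNA and scramble siRNA to ZRANB1 siRNA. Then came KRBOX1 at 0.41, the transcription factor gene CEBPD at 0.41, the Wnt ligand gene WNT10A at 0.45 and the iron-siderophore binding protein gene LCN2 at 0.47. KRBOX1 was listed at 0 in the scramble siRNA group. CEBPD, the most abundant of them, went from 69.8 ± 11.4 FPKM with the scramble shRNA to 35.9 ± 6.25, 14.2 ± 2.25 and 22.5 ± 4.65. In all 5 of these, as in CST7, the scramble siRNA mean was the lowest. They were chosen by their values, so no test was made on them.

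**Figure D4:**
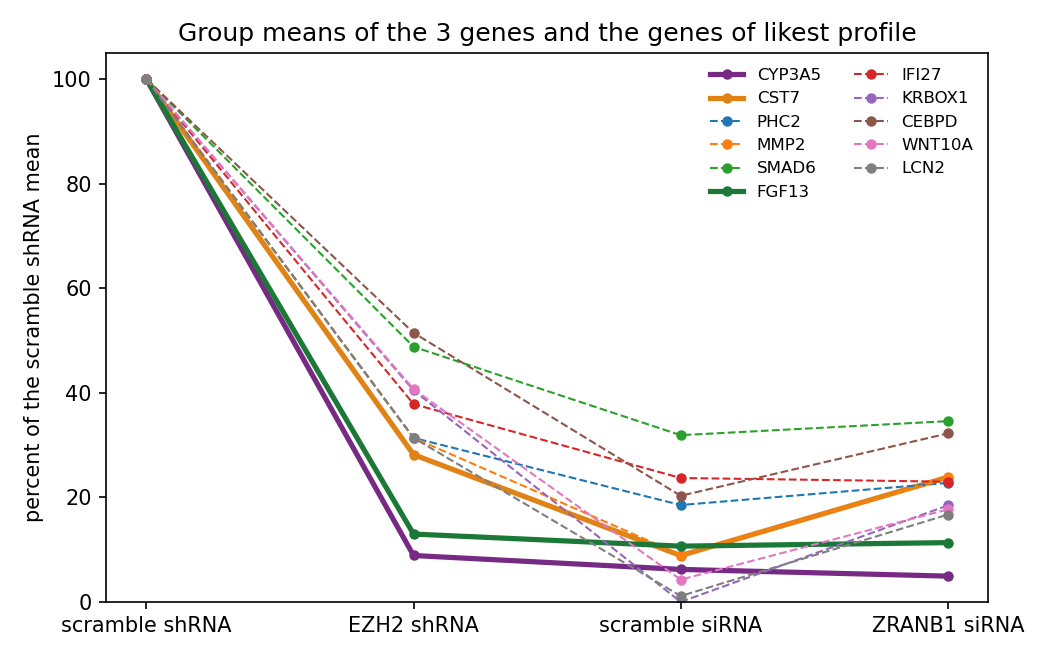
Group means of FGF13, CYP3A5 and CST7 (thick lines) and of the genes of likest profile (dashed), as a percent of the scramble shRNA mean; lines join the groups of 1 gene and imply no order in time. FGF13 and CYP3A5 stay at or below 13% in all 3 low groups, whereas CST7 dips to 8.87% with the scramble siRNA, as MMP2 does.

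The genes next to the members on the chromosome were looked at after the data were seen. Of the 10 nearest protein-coding genes around each, by RefSeq gene order, 11 of 30 were tested, and 0 were called lower with the EZH2 shRNA than with the scramble shRNA, where 3.03% of all tested genes were. At an unadjusted p below 0.05, limma gave 0 higher and 1 lower neighbour there. Against the scramble shRNA, 0 were higher with the ZRANB1 siRNA, where 15.1% of tested genes were, and 1 was lower, where 14.2% were. With the scramble siRNA 2 of the 11 were lower, against a background of 25.1%, and 1 was higher, against 25.5%. These shares, over 11 genes, are not a result about the neighbours. The 2 lower ones lie next to CYP3A5: GS1-259H13.2, an older name of TMEM225B, went from 2.38 ± 0.358 to 0.524 ± 0.248 FPKM, and ZSCAN25 from 4.4 ± 0.0839 to 3.39 ± 0.290 FPKM. RBMX, near FGF13, stood at 127, 126, 122 and 116 FPKM from scramble shRNA through EZH2 shRNA and scramble siRNA to ZRANB1 siRNA. APMAP, beside CST7, stood at 66.1, 59.1, 63.0 and 65.9 FPKM.

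**Figure D5:**
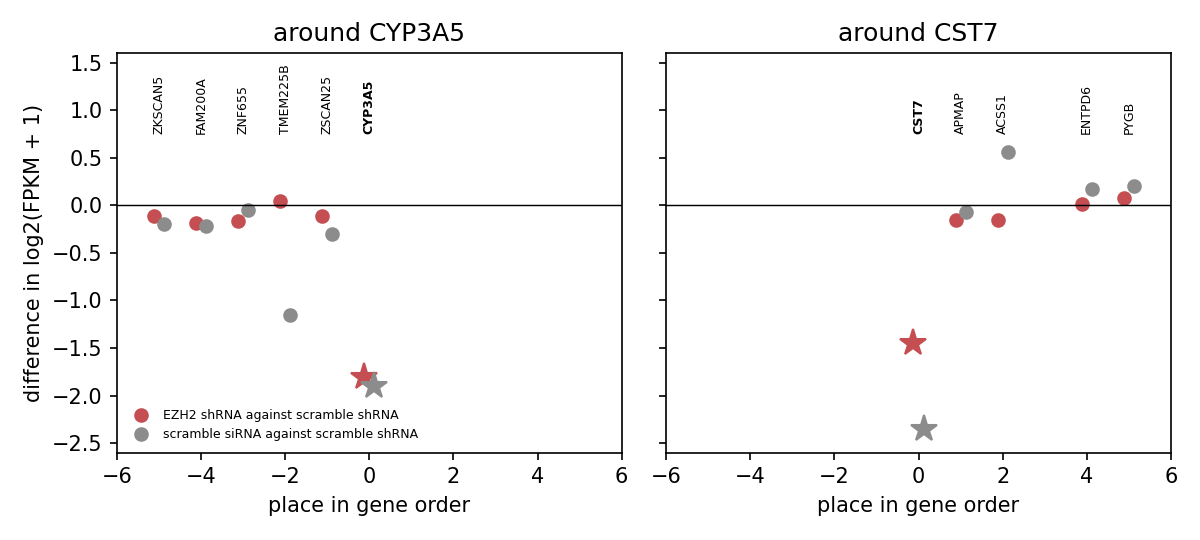
Difference in log2(FPKM + 1) of the EZH2 shRNA group (red) and the scramble siRNA group (grey) from the scramble shRNA group, for CYP3A5 and CST7 (stars) and for the tested protein-coding genes among the 5 on either side (points), by place in gene order. The stars lie between -1.45 and -2.35, and of the neighbours 1 point, GS1-259H13.2 (drawn as TMEM225B) with the scramble siRNA, lies below -1.

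The closest relatives of FGF13 were low. The other homologous factor genes FGF11, FGF12 and FGF14, whose products also stay inside the cell, did not exceed 1.19, 0.135 and 0.201 FPKM. Of 12 neuronal markers 2 were tested. The column sums of all 12 were 18.8 to 25.3 FPKM with the scramble shRNA, 19.1 to 25.4 with the EZH2 shRNA, 57.0 to 78.8 with the scramble siRNA and 39.6 to 55.1 with the ZRANB1 siRNA, mostly from the tubulin gene TUBB3. TUBB3 rose from scramble shRNA to scramble siRNA (log2 difference 1.77, limma adjusted p = 3.94e-06), where 25.5% of all tested genes were higher. It fell with the ZRANB1 siRNA (-0.53, limma adjusted p = 0.0443, up to 0.161 in other settings), where 6.5% were lower. SNAP25, the other tested marker, was uncalled in both comparisons (limma adjusted p = 0.226 and 0.608). Its means were 3.03, 3.55, 3.71 and 3.30 FPKM from scramble shRNA through EZH2 shRNA and scramble siRNA to ZRANB1 siRNA. The synaptic vesicle gene SYP had means of 0.384, 0.348, 0.123 and 0.337 FPKM in the same order, and the neuronal splicing factor gene RBFOX3 did not exceed 0.287 FPKM. The part of these genes in the levels of FGF13 was not tested.

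Of 25 secreted fibroblast growth factors and receptors, 4 were tested. FGFR1, a receptor that FGF13 is not a classical ligand of, fell with the EZH2 shRNA from 52.3 ± 4.4 to 40.7 ± 1.17 FPKM and rose in the ZRANB1 siRNA group from 17.1 ± 0.712 to 30.0 ± 2.17 FPKM. The ligand gene FGF5 ran opposite, from 1.65 ± 0.388 to 2.80 ± 0.481 FPKM with the EZH2 shRNA and from 13.9 ± 1.91 to 8.42 ± 0.941 FPKM with the ZRANB1 siRNA. The receptor gene FGFR4 stood at 0.564 ± 0.155 and 0.829 ± 0.245 FPKM in the shRNA groups and at 10.0 ± 2.08 and 5.17 ± 1.08 in the siRNA groups. The decoy receptor gene FGFRL1 stood at 25.1 ± 1.64, 23.1 ± 2.68, 14.2 ± 2.03 and 15.7 ± 1.75 FPKM. In all, 1 of the 4 rose and 1 fell with the EZH2 shRNA, where the background was 3.39% and 3.03%, and 1 rose and 2 fell with the ZRANB1 siRNA, where it was 10.1% and 6.5%. The EZH2 shRNA calls of FGF5 and FGFR1 did not hold in each setting tried, with limma adjusted p up to 0.158 and 0.105.

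Other drug-metabolizing cytochromes were called in both directions. Of 22 listed cytochromes and redox partners, 10 were tested. With the EZH2 shRNA 0 rose and 1 fell (background 3.39% and 3.03%), and with the scramble siRNA against the scramble shRNA 4 rose and 2 fell (25.5% and 25.1%). With the ZRANB1 siRNA 2 rose and 1 fell (10.1% and 6.5%), namely CYP1B1 and CYP2E1 and, lower, CYP2S1. Each of these 3 calls was lost without the filter on low values and in other settings, with limma adjusted p up to 0.0738, 0.0907 and 0.131. The one that fell with the EZH2 shRNA was CYP1B1, which metabolizes polycyclic hydrocarbons and estrogens, from 27.4 ± 1.57 to 14.3 ± 3.70 FPKM, with a log2 difference of -0.92 and a limma adjusted p of 0.00465 that reached 0.0684 with the values of those 2 groups alone. CYP1B1 was also low with the scramble siRNA, at 8.89 ± 0.962 FPKM, and stood at 14.0 ± 1.29 FPKM with the ZRANB1 siRNA. The reductase gene POR was higher with the scramble siRNA, 26.2 ± 2.52 against 14.2 ± 1.32 FPKM with the scramble shRNA. CYB5R3, CYB5B and CYB5A, of the cytochrome b5 system, stood at 61.1 to 70.0, 21.1 to 32.1 and 16.7 to 20.7 FPKM by group mean. CYP2E1 stood at 1.78 ± 0.397, 1.76 ± 0.556, 0.118 ± 0.105 and 0.679 ± 0.0534 FPKM and CYP2S1 at 0.662 ± 0.0804, 0.427 ± 0.232, 3.86 ± 0.221 and 2.45 ± 0.549 FPKM from scramble shRNA through EZH2 shRNA and scramble siRNA to ZRANB1 siRNA.

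Among the receptors that control CYP3A genes in liver, NR1I2, the pregnane X receptor gene, was listed at 0 in all 12 libraries. Of 13 listed receptors and partners, 8 were tested: 1 rose and 0 fell with the EZH2 shRNA (background 3.39% and 3.03%), and 0 rose and 3 fell with the scramble siRNA against the scramble shRNA (25.5% and 25.1%). At an unadjusted p below 0.05, limma gave 2 lower with the EZH2 shRNA and 0 higher with the scramble siRNA. The vitamin D receptor gene VDR was the one that rose, from 15.4 ± 0.176 to 18.2 ± 0.583 FPKM (log2 difference 0.22, limma adjusted p = 0.0444, up to 0.191 in other settings). Its scramble siRNA and ZRANB1 siRNA levels were 2.77 ± 0.131 and 11 ± 0.256 FPKM. VDR fell from scramble shRNA to scramble siRNA (log2 difference -2.12, limma adjusted p = 2.94e-10). With the ZRANB1 siRNA against the scramble siRNA, VDR alone was called and rose (1.67, limma adjusted p = 6.06e-09), where 10.1% of tested genes were higher. NR1I3 stood at 1.20 to 1.54 FPKM by group mean and was uncalled in these comparisons. RXRA, the common partner of nuclear receptors, stood at 14.5 ± 0.851, 12 ± 0.839, 11.1 ± 0.988 and 10.1 ± 1.18 FPKM. RXRB, the glucocorticoid receptor gene NR3C1 and the dioxin receptor gene AHR stood at 26.2 to 30.0, 26.5 to 32.7 and 13.5 to 27.6 FPKM by group mean. The hepatocyte and enterocyte list had column sums of 12.8 to 14.3 FPKM with the scramble shRNA, 9.16 to 12 with the EZH2 shRNA, 0.397 to 1.11 with the scramble siRNA and 3.96 to 4.84 with the ZRANB1 siRNA. That sum was mostly SERPINA1, 5 of its 11 genes were listed at 0, and the albumin gene ALB did not exceed 0.174 FPKM.

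Among the other cystatins the levels varied by gene. Of 12 listed, 3 were tested and limma called 0 with the EZH2 shRNA (background 3.39% higher and 3.03% lower) or with the ZRANB1 siRNA (10.1% and 6.5%), beside 1 lower gene in each at an unadjusted p below 0.05. With 3 genes such a count is near the background. CST6, which encodes the secreted cystatin E/M, did not reach the minimum for the test and was singled out after its values were seen. Its level was 1.65 ± 0.369 FPKM in the scramble shRNA libraries and 0.184 ± 0.160, 0.339 ± 0.383 and 0.243 ± 0.210 FPKM in the EZH2 shRNA, scramble siRNA and ZRANB1 siRNA libraries, so its mean too was highest with the scramble shRNA. Cystatin C, encoded by CST3, stood at 168 ± 15.3, 191 ± 22.4, 171 ± 20.2 and 192 ± 18.4 FPKM from scramble shRNA through EZH2 shRNA and scramble siRNA to ZRANB1 siRNA. CSTB, encoding the cytosolic inhibitor stefin B, stood at 140.1 ± 4.24, 132 ± 8.15, 210.4 ± 0.0979 and 190.0 ± 3.65 FPKM and rose from scramble shRNA to scramble siRNA (limma adjusted p = 9.06e-06). CSTA stood at 1.24 ± 0.242, 0.355 ± 0.375, 1.88 ± 0.621 and 1.52 ± 0.459 FPKM, with an uncalled log2 difference of -0.76 with the EZH2 shRNA (limma adjusted p = 0.0735).

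The proteases that cystatins inhibit were all measured. Of 12 cysteine cathepsins and legumain, 0 rose and 1 fell with the EZH2 shRNA (background 3.39% and 3.03%). With the scramble siRNA against the scramble shRNA 2 rose and 7 fell (25.5% and 25.1%), and with the ZRANB1 siRNA 6 rose and 1 fell (10.1% and 6.5%). CTSC, the dipeptidyl peptidase that activates granzymes and a target of cystatin F, stood at 73.3 ± 3.77, 81.3 ± 13.3, 99.8 ± 6.65 and 95.9 ± 4.75 FPKM. CTSB fell with the EZH2 shRNA from 122 ± 5.64 to 93.9 ± 5.40 FPKM (limma adjusted p = 0.00541, and 0.0661 with those 2 groups alone) with scramble siRNA and ZRANB1 siRNA levels of 52.7 ± 0.763 and 84.0 ± 2.56 FPKM. CTSL stood at 42.5 ± 2.92, 40.2 ± 1.81, 36.1 ± 2.26 and 44.5 ± 1.76 FPKM and CTSZ at 142 ± 11.1, 127 ± 15.3, 79.4 ± 5.45 and 98.8 ± 5.63 FPKM, and the ZRANB1 siRNA calls of both were lost in some settings, with limma adjusted p up to 0.0699 and 0.162. CTSS, CTSW and CTSF had the largest ZRANB1 siRNA differences of the list, 2.33, 2.28 and 1.19 on the log2 scale, and CTSV was the one that fell (-0.66). From scramble shRNA through EZH2 shRNA and scramble siRNA to ZRANB1 siRNA, CTSW stood at 15.6 ± 0.966, 10.3 ± 0.249, 0.352 ± 0.423 and 5.41 ± 0.968 FPKM. That is the same order of groups as for CST7. CTSS stood at 16.6 ± 2.64, 18.7 ± 3.31, 0.954 ± 0.0546 and 8.89 ± 1.47 FPKM. The list median with the ZRANB1 siRNA was 0.29 on the log2 scale, against -0.017 over all tested genes.

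Most listed markers of the blood cells that usually carry CST7 were low, with the exception of CD68 and CD14. The cathepsin genes CTSW and CTSS were not on this list. Of 22 lymphocyte and myeloid markers these 2 were tested, and 5 were listed at 0, among them the T cell receptor complex gene CD3D and the granzyme genes GZMH and GZMK. The common leukocyte gene PTPRC did not exceed 0.0395 FPKM and the cytotoxic granule gene NKG7 0.362 FPKM. The list had column sums of 36.8 to 43.4 FPKM with the scramble shRNA, 35.0 to 44.3 with the EZH2 shRNA, 39.0 to 43.5 with the scramble siRNA and 41.4 to 46.3 with the ZRANB1 siRNA, nearly all of it CD68, a lysosomal protein gene that many cells express. CD14, a monocyte coreceptor for lipopolysaccharide, stood at 3.90 ± 0.680 FPKM with the scramble shRNA, 2.87 ± 0.877 with the EZH2 shRNA, 0.243 ± 0.158 with the scramble siRNA and 0.867 ± 0.175 with the ZRANB1 siRNA, the same order of groups as CST7. It fell from scramble shRNA to scramble siRNA (log2 difference -1.98, limma adjusted p = 3.19e-06), where 25.1% of all tested genes were lower. It rose with the ZRANB1 siRNA (0.59, limma adjusted p = 0.0401), where 10.1% were higher. The latter call was lost in some settings, with limma adjusted p up to 0.133. The macrophage receptor gene CSF1R, not tested for its low level, had means of 0.865, 0.713, 0.290 and 0.400 FPKM. The part of such cells in the levels of CST7 was not tested.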

How the data were processed

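FPKM values of 26006 gene rows in 12 columns are what the authors deposited. The submitters' processing notes name TopHat2 2.1.1, SAMtools, Cufflinks 2.2.1, Cuffdiff 2.2.1 and hg19; for annotation, options, strand and scaling the sources used here give nothing. The 3 genes and the gene lists were chosen with earlier results of these data known. Of 440 repeated symbols, the row of highest mean was kept. In all rows with 3 different values, those of a group stood in text order, so a column followed no library: depth per library is unknown, column sums mix libraries, and 3 values per group limit the precision. Values were tested as log2(FPKM + 1) with limma 3.58.1 in R 4.3.3: 4 group means in 1 fit, variance prior with intensity trend, Benjamini-Hochberg adjustment over the 11929 genes with means of 1 FPKM or more, called at an adjusted p below 0.05. The fit was tested on simulated data. Named genes were the 3 genes, the targets, the 5 of likest profile for each, the 4 most abundant tested genes of each list of relatives and partners, and called members where 5 or fewer were called; other listed genes, the marker genes, the high genes S100A4 and SAA1 and the chromosomal neighbours were singled out after the data were seen. Some genes under this rule are not reported here. Promoter windows and gene order came from RefSeq (GRCh38.p14); windows keep the 250 bases before the start. Alternatives changed the pseudocount, filter, groups fitted, trend, scaling, repeated rows and values left out. Plots used matplotlib 3.10.9 (Python 3.11.15).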

Additional observations from a re-analysis of the deposited data

Results flagged for a closer look

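CST7 moved in opposite directions in both targeted comparisons: its 3 EZH2 shRNA values lay below all 3 scramble shRNA values (log2 difference -1.45), and its 3 ZRANB1 siRNA values lay above all 3 scramble siRNA values (0.74). The difference between these effects, 2.19, was not tested, because CST7 was picked on the first of them.

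For 7 of the relatives and partners the effects of the ZRANB1 siRNA and the EZH2 shRNA differed by limma's test of the difference itself. Only genes already called in a comparison were looked at, so this count cannot be set against the 10.5% of all tested genes that differed. The EZH2 shRNA calls of CTSB, CYP1B1, FGF5, FGFR1 and VDR, and the ZRANB1 siRNA calls of CTSL and CYP1B1, were lost in at least 1 other setting. The ZRANB1 siRNA effect minus the EZH2 shRNA effect was 1.04 for CTSB (adjusted p = 1.90e-05 by limma), 0.37 for CTSL (0.0428), 1.52 for CYP1B1 (7.73e-04), 1.13 for FGFR1 (5.32e-05), 1.45 for VDR (7.35e-07), -1.18 for FGF5 (0.00256) and -1.06 for FGFR4 (0.0155).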

How the results depend on the processing

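No paired analysis was possible because the values of each group stood in text order, so the replicate number of a column named no library. The 6 uncalled differences of FGF13 and CYP3A5 among the low groups stayed uncalled, and the calls of CST7 above the scramble siRNA held, with a pseudocount of 0.1, no filter, a fit to the 6 compared values only, a variance prior without trend, 1 scaling factor per group, rows of a symbol summed, and each value omitted in turn from randomly ordered values. In the low groups all values of FGF13 and CYP3A5 lay below the minimum of 1 FPKM. That their differences stayed uncalled therefore cannot support a shared level. A filter at 5 FPKM left none of the 3 genes in the test. With a pseudocount of 0.1 the differences from the scramble shRNA group were larger: -2.80, -3.06 and -3.01 for FGF13 with the EZH2 shRNA, scramble siRNA and ZRANB1 siRNA, -3.31, -3.58 and -3.75 for CYP3A5, and -1.78, -3.32 and -2.03 for CST7; a smaller pseudocount by construction shrinks low values less. Leaving out 1 value turned the sign of some uncalled differences: FGF13 ran from -0.032 to 0.14, with -0.027 and -0.012 between, for ZRANB1 siRNA against scramble siRNA and from -0.15 to 0.017 against EZH2 shRNA, and CYP3A5 from -0.13 to 0.0037 for ZRANB1 siRNA against scramble siRNA and from -0.032 to 0.23 for EZH2 shRNA against scramble siRNA. CST7 ran from 0.62 to 0.87 and from 0.85 to 0.98 above the scramble siRNA, for the ZRANB1 siRNA and EZH2 shRNA. The 603 genes with scramble shRNA values above all others, of 11929 tested, became 795 of 24556 symbols without the filter. They became 430 with a mean of at least 5 FPKM. The number of genes kept changed with the filter, so these counts cannot be compared as shares. The depth behind each value is unknown, so counting error could not be given.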
